A study of Mus musculus with 6 samples.

Results

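The transcription factor genes Tal1, Tal2, Lmo2, Lyl1, Etv2, Fli1, Gata2, Hhex, Runx1 and Erg, which act in the common progenitors of blood and endothelium, were followed in sorted mouse mesoderm with and without a repressor of Hedgehog signalling. They were found by gene symbol, and all 10 were among the 24975 genes of the deposited count table. The Gli3R group had the genotype Mesp1-Cre/+;R26-Gli3R-IRES-Venus/+, in which a repressor form of the Hedgehog factor Gli3 and the Venus reporter are expressed from the R26 locus, and the control group the genotype Mesp1-Cre/+;R26-tdTomato/+, so that both groups carried 1 copy of Mesp1-Cre. Embryos were taken at day 7.5 and pooled by litter, and each of 3 litters gave 1 Gli3R and 1 control library of 1000 sorted cells. Per the notes in the deposited table, Gli3R cells were sorted on Venus and control cells on tdTomato, so an effect of Gli3R cannot be told apart from one of the reporter. Mesp1 is switched on in newly formed mesoderm, and cells that never expressed its Cre lie outside the sort.

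At this stage the first blood and endothelial cells of the mouse arise from mesoderm that moves through the primitive streak to the yolk sac, allantois and heart field. The ETS factor Etv2 acts at the top of this programme and is needed in the mouse for both lineages. Tal1, also called Scl, binds E-box sequences together with an E protein, and Lmo2 and Ldb1 bridge it to a GATA factor in a shared complex. Runx1, Fli1, Erg and Gata2 act in the haemogenic and endothelial cells that follow.

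The factors did not move as a block. Tal2 was 5.23-fold higher in the Gli3R libraries and was called higher in the test without a litter block. It passed the filter on low counts through its Gli3R libraries alone, so this call rests on the group where it is high. Tal1, Hhex, Runx1, Fli1 and Etv2 were 1.54- to 1.95-fold higher without passing that test. Lmo2 stood apart from its partner Tal1, being 1.90-fold lower in the Gli3R libraries without passing. Gata2 lay between, with groups that overlapped, and Lyl1 and Erg were nearly silent in all 6 libraries. Of the 8 factors that were expressed enough to be tested, 1 was called higher and 0 lower once p was adjusted by Benjamini-Hochberg over 11913 genes (threshold 0.05, quasi-likelihood test of edgeR), where 0.0252% of all tested genes were called higher and 0.109% lower. With litter as a block, 0 members were called in either direction, against 0.0755% of genes called higher and 0.151% lower. At an unadjusted p under 0.05, 6 were higher and 1 lower in each of these fits, beside 3.56% higher and 3.29% lower of all tested genes in the fit without the block and 4.83% higher and 3.90% lower with it. The count depended on the tool and the filter at the same threshold: DESeq2 and an edgeR fit without the filter on low counts each called Tal2, Tal1, Etv2 and Hhex higher and Lmo2 lower. The background of DESeq2 was 0.361% of genes higher and 0.428% lower, and that of the unfiltered fit 0.262% and 0.315%.

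**Figure D1:**
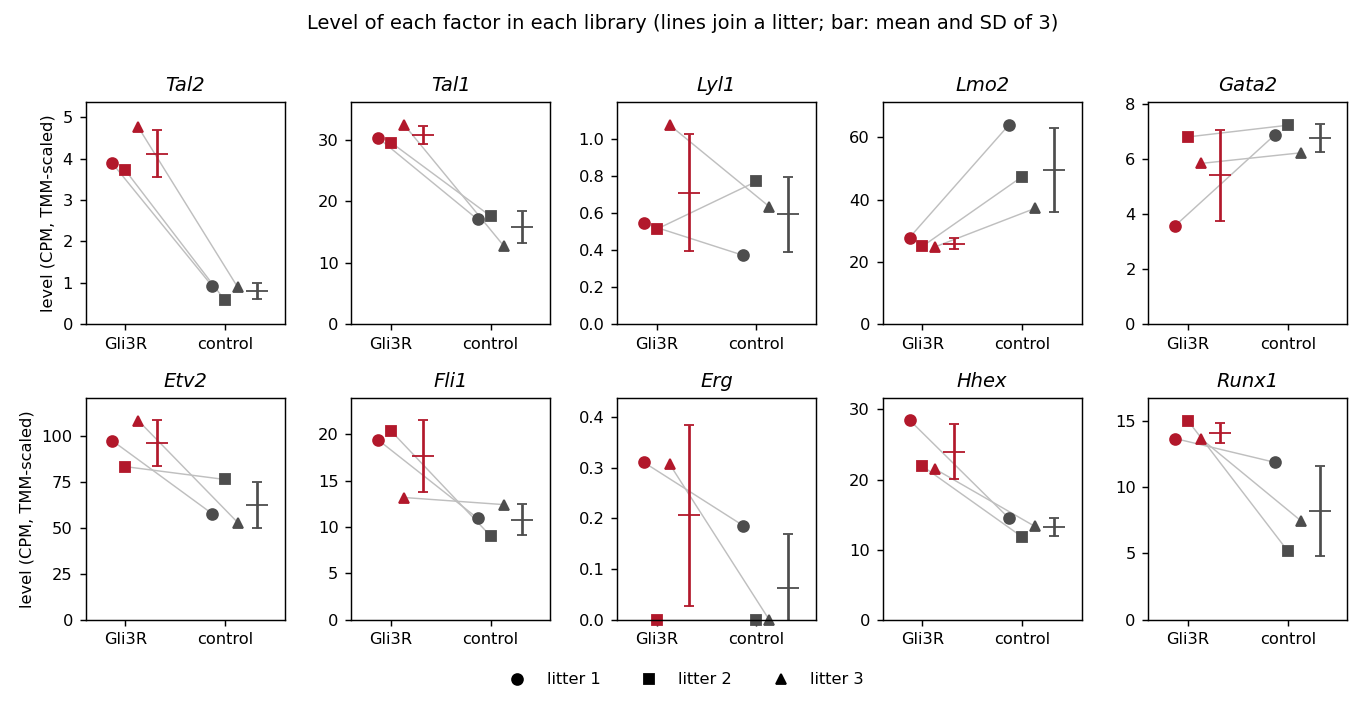
Level of each of the 10 factors in each library, in CPM (TMM-scaled) on linear axes from 0. Red symbols are Gli3R and grey symbols control libraries, the symbol shape and the grey line mark the litter, and the bar beside each group is the mean with the SD of 3 libraries. Tal2, Tal1, Etv2, Fli1, Hhex and Runx1 lie higher in every Gli3R library than in any control library, and Lmo2 lies lower.

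The libraries held 6592417 to 12635151 counts in the Gli3R group and 5481190 to 10435790 in the control group. A single count was worth 0.0777 to 0.186 CPM (counts scaled to library size and TMM factor), and a library without a read allows a level of up to 3 counts, or 0.233 to 0.557 CPM, by counting error alone. Gli3 itself, part of which the transgene carries, averaged 44.5 ± 6.04 CPM in Gli3R and 29.9 ± 4.30 CPM in control libraries (SD, n = 3 each). Of the markers of the labelled tissue, Hand1 led (180 CPM in Gli3R and 133 CPM in control libraries). The 12 mesoderm markers, all present, summed to 292 to 343 CPM in Gli3R and 298 to 332 CPM in control libraries. Of the 12, 3 were lower in every Gli3R library than in any control library, beside 6.33% of all tested genes. Control replicate 1, the shallowest library, stood apart on the first principal component of all tested genes (42.0, against -20.3 to 2.99 in the other 5). In bulk RNA, fewer cells of a type and less RNA per cell cannot be told apart, and this holds for every level below.

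The promoters of the 4 higher factors with the smallest p are shown as the 250 bases before the annotated start. Whether Gli3R, ETS or GATA factors bind them in these cells was not tested. They are RefSeq sequences of build GRCm38.p6, written 5′ to 3′ on the strand of the gene, and capitals mark ETS letters (CCGGAA or AGGAAG) and GATA letters (AGATAA or TGATAA or AGATAG or TGATAG) found on either strand. Tal2 lies at chr4:53779451-53779700 on the plus strand, Tal1 at chr4:115056176-115056425 on the plus strand, Hhex at chr19:37434591-37434840 on the plus strand and Etv2 at chr7:30635853-30636102 on the minus strand. Of the 2 Tal1 starts, that with a GATA match is shown. The bases after this start were not found in a Tal1 transcript of GENCODE M21. Those after the other start were found, and the other start had no ETS or GATA match.
Tal2: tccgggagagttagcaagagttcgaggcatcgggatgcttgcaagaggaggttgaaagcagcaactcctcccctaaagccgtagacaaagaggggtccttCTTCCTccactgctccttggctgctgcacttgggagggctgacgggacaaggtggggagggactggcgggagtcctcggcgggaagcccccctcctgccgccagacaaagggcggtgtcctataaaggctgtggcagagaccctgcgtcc
Tal1: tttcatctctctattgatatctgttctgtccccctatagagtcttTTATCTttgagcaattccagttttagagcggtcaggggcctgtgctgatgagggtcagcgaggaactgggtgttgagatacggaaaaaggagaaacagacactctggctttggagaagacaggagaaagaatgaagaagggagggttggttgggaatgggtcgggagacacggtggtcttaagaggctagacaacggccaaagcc
Hhex: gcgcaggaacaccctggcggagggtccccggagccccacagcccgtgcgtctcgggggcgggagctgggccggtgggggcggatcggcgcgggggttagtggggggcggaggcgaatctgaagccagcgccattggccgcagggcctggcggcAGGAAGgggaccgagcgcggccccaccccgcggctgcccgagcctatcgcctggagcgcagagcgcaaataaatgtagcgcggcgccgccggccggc
Etv2: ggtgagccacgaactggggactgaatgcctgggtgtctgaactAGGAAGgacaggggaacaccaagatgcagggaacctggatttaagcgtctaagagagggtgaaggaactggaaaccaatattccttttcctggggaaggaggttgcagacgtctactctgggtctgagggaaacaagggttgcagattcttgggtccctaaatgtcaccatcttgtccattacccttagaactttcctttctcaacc

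Sequences for 13 starts of 8 of the genes were at hand, those of Tal1, Tal2, Lyl1, Etv2, Gata2, Hhex, Runx1 and Erg, and none for Lmo2 and Fli1. ETS letters were found before 7 of the 13 starts (53.8%), in Tal2, Etv2, Hhex, Lyl1, Runx1 and Erg, and before 38.2% of all 32851 starts. In Tal2 the match began 150 bases before the start, in Hhex 97 and in Etv2 207. GATA letters were found before 2 of 13 starts, the Tal1 start shown above (205 bases before it) and an Erg start, and before 26.5% of all starts. The letters TGGGTGGTC and TGGGTGGTG, to which Gli factors can bind, were found before 0 of 13 starts and before 0.834% of all starts. The E-box letters CANNTG were found before 4 of 13 starts and 66.2% of all starts, the 2 forms CAGCTG and CAGATG before 0 of 13 and 25.5%, and the RUNX letters TGTGGT before 0 of 13 and 14.05%. A match here is a stretch of letters in a short window and was not tied to any binding data.

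The sister genes Tal1, Tal2 and Lyl1 encode closely related basic helix-loop-helix factors. Tal2 (Entrez gene 21350) had 50, 29 and 31 reads in Gli3R replicates 1, 2 and 3, against 5, 6 and 7 reads in control replicates 1, 2 and 3. These were 3.88, 3.72 and 4.76 CPM in the Gli3R libraries and 0.928, 0.577 and 0.888 CPM in the control libraries. Every Gli3R library thus lay several-fold above every control library, and the gene was close to the detection limit without Gli3R. Its log2 fold change was 2.39 ± 0.34 (SE), and it rose (edgeR adjusted p = 0.0394). Summed over libraries, 110 against 18 reads gave a ratio of 5.32 (95% interval 3.21 to 9.31, from counting error alone). Tal2 passed the filter on low counts through its Gli3R libraries alone. The call was narrow: with litter as a block the adjusted p was 0.0502, and it missed in each fit that left out a library, at 0.0639 without control replicate 1 up to 0.282 without control replicate 2, while the log2 fold change stayed between 2.16 and 2.50. Leaving out a litter gave adjusted p-values of 0.0534 to 0.761.

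Tal1 (21349), the master regulator of blood specification in the mouse, stood at 30.4, 29.6 and 32.5 CPM in Gli3R replicates 1, 2 and 3 and at 17.1, 17.6 and 12.8 CPM in control replicates 1, 2 and 3. The Gli3R libraries were tightly grouped and all lay far above the highest control library. The log2 fold change of 0.96 ± 0.15 (SE) fell just short of the threshold (edgeR adjusted p = 0.0506). It passed at 0.0470 when the libraries were scaled by their size alone, at 0.00213 without the filter and at 1.81e-04 in DESeq2. It did not pass with litter as a block (edgeR adjusted p = 0.0620), and leaving out a library or litter gave 0.0587 to 0.747, the highest without litter 2. Lyl1 (17095), which can stand in for Tal1 in adult blood stem cells of the mouse, had 7, 4 and 7 reads in Gli3R replicates and 2, 8 and 5 reads in control replicates. It lay under the filter, and the read ratio of 1.04 (95% interval 0.497 to 2.23, counting error only) shows no difference that could be detected at this depth.

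Relative to Tal1, its sister Tal2 also took a larger share of the reads. There were 12.8, 12.6 and 14.6 Tal2 reads per 100 Tal1 reads in Gli3R replicates 1, 2 and 3, against 5.43, 3.28 and 6.93 in control replicates 1, 2 and 3. The lowest Gli3R library exceeded the highest control library. These ratios are not corrected for gene length and were not tested.

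Lmo2 (16909), the LIM-only bridge of the Tal1 complex, lay on the other side of 0 from its partner. It stood at 27.8, 25.0 and 24.9 CPM in Gli3R replicates 1, 2 and 3, against 64.0, 47.3 and 37.2 CPM in control replicates 1, 2 and 3. The Gli3R libraries were nearly level and all lay below the lowest control library, whereas the control libraries spread widely. The log2 fold change was -0.92 ± 0.18 (SE) and did not pass (edgeR adjusted p = 0.160, and 0.0596 with litter as a block). DESeq2 called it lower (adjusted p = 6.72e-04), as did the edgeR fit without the filter (0.00384). The highest control value came from control replicate 1, and without that library the log2 fold change was -0.70.

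Set side by side, the balance of Lmo2 to Tal1 reads differed widely between the groups. There were 0.916, 0.844 and 0.764 Lmo2 reads for each Tal1 read in Gli3R replicates 1, 2 and 3. In control replicates 1, 2 and 3 there were 3.75, 2.69 and 2.90. Tal1 reads outnumbered Lmo2 reads in every Gli3R library and Lmo2 reads outnumbered Tal1 reads in every control library. A ratio within a library does not depend on how libraries are scaled, but it was formed after both genes had been seen and has no test.

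**Figure D2:**
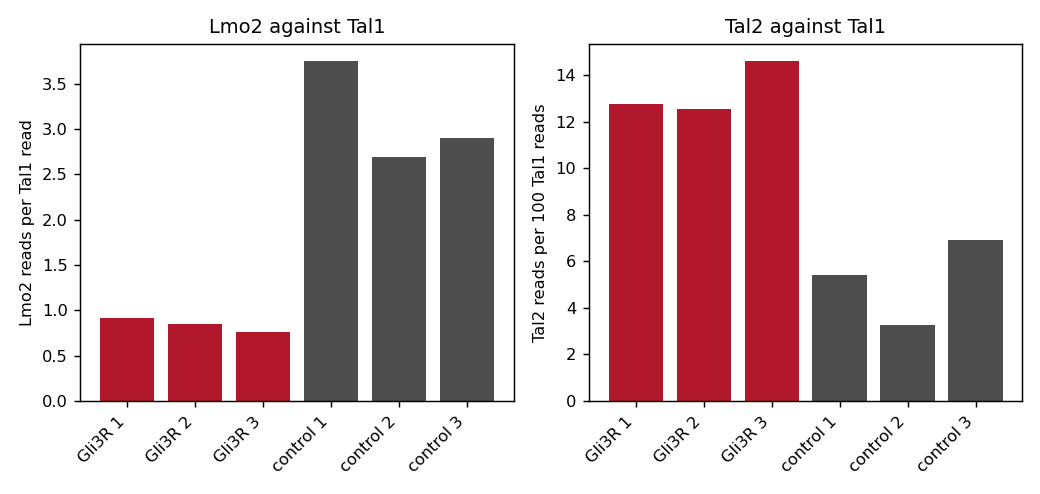
Bars give, for each library, the number of Lmo2 reads per Tal1 read (left) and of Tal2 reads per 100 Tal1 reads (right), from the counts as deposited, on axes that start at 0. Red bars are Gli3R and grey bars control libraries. Lmo2 per Tal1 runs from 0.764 to 0.916 in Gli3R and from 2.69 to 3.75 in control libraries.

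Gata2 (14461), the GATA factor of blood progenitors and endothelium, had 3.57, 6.79 and 5.83 CPM in Gli3R replicates 1, 2 and 3 and 6.86, 7.22 and 6.21 CPM in control replicates 1, 2 and 3. The groups overlapped, and the lowest value by far was that of Gli3R replicate 1. The difference, -0.35 ± 0.27 (SE) as a log2 fold change, did not pass (edgeR adjusted p = 0.940). Within litters the log2 ratio of Gli3R over control was -0.95, -0.083 and -0.088 in litters 1, 2 and 3, so that the difference came mainly from litter 1.

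Of the ETS factors, Etv2 (14008) was the most highly expressed. It stood at 97.2, 83.2 and 108 CPM in Gli3R replicates 1, 2 and 3, against 57.7, 76.2 and 52.8 CPM in control replicates 1, 2 and 3. The groups did not overlap, although Gli3R replicate 2 and control replicate 2, of the same litter, lay near each other. Its log2 fold change was 0.62 ± 0.15 (SE), with adjusted p-values of 0.252 in edgeR and 0.0193 in DESeq2. The log2 ratio was 0.75, 0.13 and 1.03 within litters 1, 2 and 3.

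Fli1 (14247), which acts after Etv2 and holds the endothelial programme in place, had 19.4, 20.4 and 13.2 CPM in Gli3R replicates 1, 2 and 3. It had 10.9, 9.04 and 12.4 CPM in control replicates 1, 2 and 3. Litters 1 and 2 were apart and litter 3 was nearly level, with log2 ratios of 0.82, 1.17 and 0.087 within litters 1, 2 and 3. At 0.72 ± 0.21 (SE), the log2 fold change did not pass (edgeR adjusted p = 0.402). Erg (13876), a close relative of Fli1, had 4, 0 and 2 reads in Gli3R replicates and 1, 0 and 0 reads in control replicates, a ratio of 5.22 with a 95% interval of 0.633 to 240 for counting error. Its level was at or near the level that an empty count allows in every library, so no difference could be seen at this depth.

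The homeobox gene Hhex (15242), which marks endothelial and blood precursors and also anterior endoderm, stood at 28.5, 21.9 and 21.5 CPM in Gli3R replicates 1, 2 and 3. In control replicates 1, 2 and 3 it stood at 14.5, 11.8 and 13.3 CPM. Every Gli3R library lay above every control library, and the log2 ratios of 0.97, 0.89 and 0.69 within litters 1, 2 and 3 were the most even of the higher factors. Its log2 fold change was 0.88 ± 0.16 (SE), with adjusted p-values of 0.116 in edgeR, 0.0596 with litter as a block and 0.00605 in DESeq2. Since Hhex is also an endoderm gene, the 12 endoderm markers were summed: they came to 14.4 to 52.7 CPM in Gli3R and 14.97 to 51.5 CPM in control libraries. Of these 12 markers, 6 passed the filter on low counts. Among the 12, 1, Foxa2, was lower in every Gli3R library than in any control library. Foxa2 lay under the filter, so the 6.33% of all tested genes is not a like share for it. Foxa2 had no read in the Gli3R libraries and 0.557, 1.06 and 0.634 CPM in control replicates 1, 2 and 3. Cldn6 had 0.544, 2.05 and 0.153 CPM in Gli3R replicates 1, 2 and 3 and 15.4, 11.3 and 0.634 CPM in control replicates 1, 2 and 3, so that the groups overlapped. The part of endoderm cells in the Hhex level was not tested.

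Runx1 (12394), needed in the mouse for definitive blood, stood at 13.7, 14.995 and 13.7 CPM in Gli3R replicates 1, 2 and 3 and at 11.9, 5.20 and 7.48 CPM in control replicates 1, 2 and 3. Its Gli3R libraries were nearly level, and control replicate 1 came close to them. The log2 ratios within litters 1, 2 and 3 were 0.20, 1.52 and 0.86, and the log2 fold change, 0.83 ± 0.27 (SE), did not pass (edgeR adjusted p = 0.478). Antisense exons of Gm26626 cover 1.42% of the Runx1 exon bases and an exon of Nfix on the other strand covers 4 bases of Lyl1, and the strand setting of the counting is unknown.

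**Figure D3:**
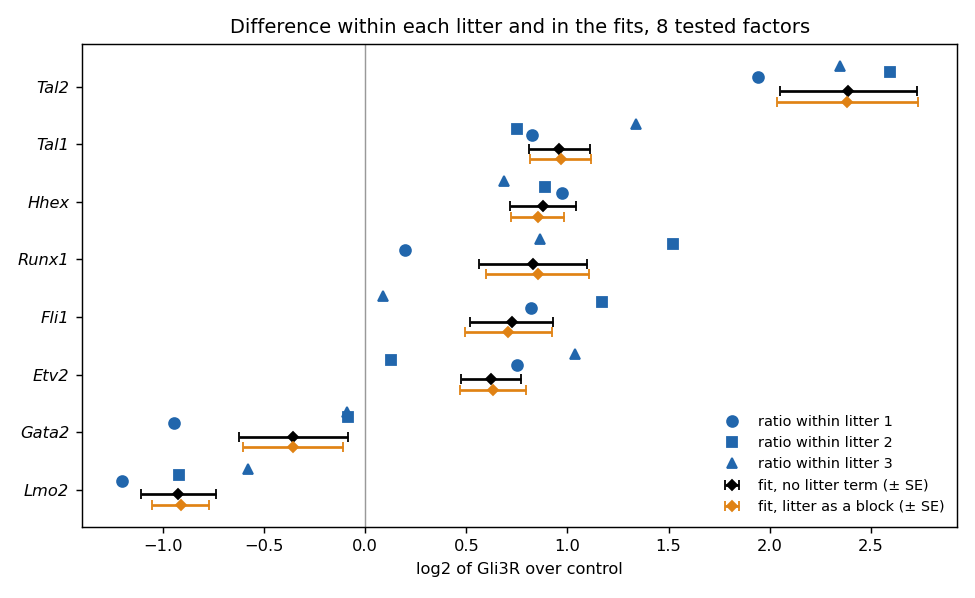
For each of the 8 tested factors, the log2 ratio of the Gli3R over the control library within each litter (blue symbols) and the fitted log2 fold change with its SE, without a litter term (black) and with litter as a block (orange). Values right of 0 are higher in Gli3R. Of the 8, 6 lie right of 0 in all 3 litters, and Lmo2 and Gata2 lie left of it in all 3.

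Across litters the direction was the same for every tested factor: 6 were higher in all 3 litters, beside 15% of all tested genes, and Lmo2 and Gata2 were lower in all 3, beside 15.3%. Groups that did not overlap were seen for 6 higher factors and for Lmo2 among the lower ones, beside 5.62% and 6.33% of all tested genes. The median log2 fold change of the 8 tested factors was 0.78, with -0.0079 for all tested genes. The members were chosen with earlier results of these data known, and Tal2 was tested through its Gli3R libraries alone. These shares, the median and the ranks are therefore a description of the members and not a test of them as a set. By edgeR p Tal2 ranked 13 of 11913 genes, Tal1 21, Hhex 37, Lmo2 45 and Etv2 103. The summed level of all 10 genes was 206 to 226 CPM in the Gli3R libraries and 144 to 184 CPM in the control libraries. Etv2 was its largest part, with means of 96.2 CPM in Gli3R and 62.2 CPM in control libraries. Lmo2 (25.9 CPM in Gli3R and 49.5 CPM in control libraries) and Gata2 went the other way, so the sum is not a joint rise.

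**Figure D4:**
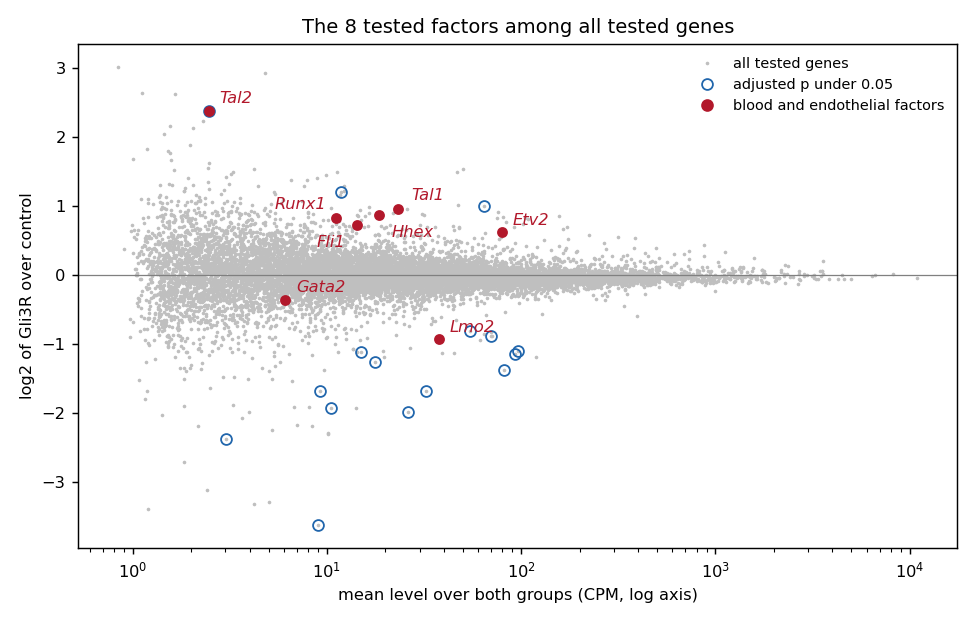
Each grey point is 1 of the 11913 tested genes, by its mean level in CPM over both groups (log axis) and its log2 fold change of Gli3R over control. Red points are the 8 tested factors and blue circles the genes with an adjusted p under 0.05. Tal2 is circled, at a log2 fold change of 2.39, and Tal1 and Lmo2 lie at the outer edges of the genes of their level, at 0.96 and -0.92.

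Levels of different genes were compared per kb of exon, with exon lengths from GENCODE M21, since the annotation behind the counts is not given in the sources used here. In the Gli3R libraries Etv2 led with 91.8 ± 11.96 CPM per kb, against 59.4 ± 11.8 in control libraries (SD, n = 3 each). Lmo2 and Hhex came next: Lmo2 had 13.7 ± 0.88 CPM per kb in Gli3R and 26.2 ± 7.16 in control libraries, and Hhex 12.5 ± 2.05 in Gli3R and 6.89 ± 0.69 in control libraries. Their library ranges overlapped in the Gli3R group (13.1 to 14.7 for Lmo2 and 11.2 to 14.9 for Hhex), while in the control group Lmo2 lay above Hhex in every library. Tal1 followed with 7.20 ± 0.35 CPM per kb in Gli3R and 3.69 ± 0.61 in control libraries, and Fli1 with 5.32 ± 1.17 in Gli3R and 3.26 ± 0.51 in control libraries. The ranges of this pair were apart in the Gli3R group and overlapped in the control group.

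At the low end, Runx1 had 1.89 ± 0.10 CPM per kb in Gli3R and 1.10 ± 0.46 in control libraries, and Gata2 1.47 ± 0.45 in Gli3R and 1.84 ± 0.14 in control libraries. Gata2 and Runx1 stood in opposite order in the 2 groups, but their ranges overlapped in the Gli3R group. Tal2 reached 1.39 ± 0.19 CPM per kb in Gli3R, within the range of Gata2, and 0.27 ± 0.065 in control libraries, where its range overlapped that of Lyl1. This placing of Tal2 depends on the 2971 exon bases that GENCODE M21 gives it. Lyl1 had 0.39 ± 0.18 in Gli3R and 0.33 ± 0.11 in control libraries, and Erg was lowest in both groups. In that annotation Tal1 and Tal2 both lie on chromosome 4 and Runx1 and Erg both on chromosome 16, while the other 6 genes lie on chromosomes 2 (Lmo2), 6 (Gata2), 7 (Etv2), 8 (Lyl1), 9 (Fli1) and 19 (Hhex).

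**Figure D5:**
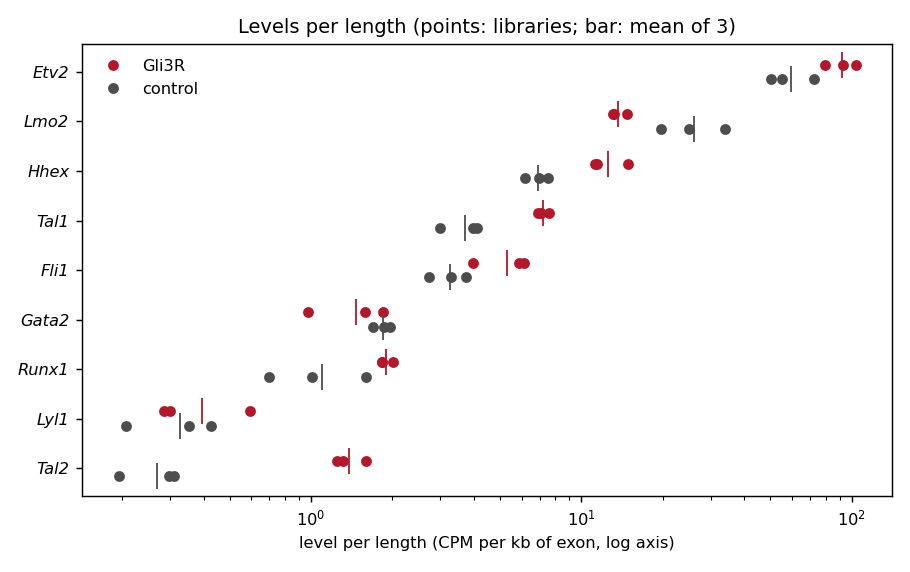
Level per length of 9 factors in CPM per kb of exon (log axis), ordered by the mean of the control libraries, with 1 point per library and a bar at the mean of 3. Red is Gli3R and grey is control. Erg is left out because 3 of its libraries had no read. Etv2 leads in both groups, and Tal2 shows the widest gap between the groups.

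The genes around these factors were read from 6 lists. Over all tested genes, 3.56% were higher and 3.29% lower at an unadjusted p under 0.05 in edgeR without the block. DESeq2 called 0.361% higher and 0.428% lower. Of 17 partners and regulators of the Tal1, Lmo2 and GATA complex tested, 0 were called by edgeR or by DESeq2, 1 was higher and 1 lower at an unadjusted p under 0.05, and the median log2 fold change was 0.031. The corepressor genes Runx1t1 (0.69 ± 0.21, SE) and Cbfa2t3 (-0.90 ± 0.30), which encode sister proteins of the ETO family, lay on opposite sides of 0. Lmo1, a relative of Lmo2, stood at -0.73 ± 0.37, and Tcf4, the gene of an E protein, at -0.20 ± 0.13. Of 10 other ETS factors tested, 0 were called by either tool, and 1 was lower at an unadjusted p under 0.05 (median -0.29). This was Ets1 (9.99 ± 2.53 CPM in Gli3R and 14.3 ± 1.86 CPM in control libraries). Etv5, a target of FGF signalling, stood at -0.42 ± 0.25, Ets2 at -0.22 ± 0.17 and Elk3 at 0.28 ± 0.18.

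The blood progenitor genes that were tested had a median on the higher side, without passing in edgeR. Of 13 in the list 7 were tested, and 0 were called by edgeR. At an unadjusted p under 0.05, 3 were higher and 0 lower, beside 3.56% and 3.29% of all tested genes. DESeq2 called Myb higher, beside 0.361% of all tested genes, and the median log2 fold change was 0.58. The 3 higher genes and the median include Gfi1, which entered through the group where it is high. They describe the genes tested and are not a result about the list. Gfi1, a repressor gene of the first haemogenic cells, had 1.93 ± 0.34 CPM in Gli3R and 0.31 ± 0.11 CPM in control libraries (edgeR adjusted p = 0.1003), and like Tal2 it passed the filter through its Gli3R libraries. Myb, a gene of definitive progenitors, had 9.31 ± 2.15 CPM in Gli3R and 3.71 ± 1.77 CPM in control libraries. The homeobox cofactor gene Meis1 had 33.4 ± 5.995 CPM in Gli3R and 22.3 ± 2.27 CPM in control libraries, whereas the receptor gene Kit had 6.83 ± 0.81 CPM in Gli3R and 9.29 ± 2.37 CPM in control libraries.

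Genes of primitive red cells gave mixed values. Of 15 primitive erythroid genes tested, 0 were called by edgeR, and the median log2 fold change was 0.24. At an unadjusted p under 0.05, 3 were higher and 0 lower, beside 3.56% and 3.29% of all tested genes. Gfi1b, an erythroid repressor gene, had 40.4 ± 15.7 CPM in Gli3R and 22.5 ± 4.70 CPM in control libraries. It was called higher by DESeq2, although its groups overlapped. The alpha globin genes Hba-a1 (73.9 ± 83.0 CPM in Gli3R and 25.96 ± 10.02 CPM in control libraries) and Hba-a2 (68.5 ± 76.7 CPM in Gli3R and 24.6 ± 9.14 CPM in control libraries) are near-identical copies whose reads cannot be assigned with certainty. Gfi1b, Hba-a1 and Hba-a2 were the 3 higher genes at an unadjusted p under 0.05, so this count may hold 1 signal 2 times. Tfrc, the transferrin receptor gene, stood at a log2 fold change of -0.25 ± 0.11 (SE). The 8 erythroid markers summed to 675, 217 and 199 CPM in Gli3R replicates 1, 2 and 3 and to 376, 437 and 201 CPM in control replicates 1, 2 and 3. Those groups overlapped and Gli3R replicate 1 stood highest. The part of red cells in the levels of Tal1 and Tal2 was not tested.

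Endothelial genes lay on both sides of 0. Of 21 tested, 0 were called by edgeR, and the median log2 fold change was -0.028. At an unadjusted p under 0.05, 2 were higher and 2 lower, beside 3.56% and 3.29% of all tested genes. Nrp1, a VEGF co-receptor gene, had 97.1 ± 15.8 CPM in Gli3R and 53.7 ± 19.2 CPM in control libraries, and Aplnr, the apelin receptor gene, 27.9 ± 3.03 CPM in Gli3R and 43.7 ± 6.25 CPM in control libraries. DESeq2 called Nrp1 higher and Aplnr lower. Kdr, the VEGF receptor gene that marks these progenitors, stood at a log2 fold change of 0.43 ± 0.19 and Ramp2 at -0.48 ± 0.20. The 8 markers of formed endothelium summed to 40.5, 47.8 and 41.1 CPM in Gli3R replicates 1, 2 and 3 and to 25.98, 40.8 and 46.5 CPM in control replicates 1, 2 and 3, and the groups overlapped.

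Signals that act upstream of the progenitors also lay on both sides of 0. Of 16 tested, 0 were called by edgeR without the block, and the median log2 fold change was -0.11. At an unadjusted p under 0.05, 2 were higher and 5 lower, beside 3.56% and 3.29% of all tested genes. With the block, 0.0755% of all tested genes were called higher and 0.151% lower. Bmp4, which induces blood mesoderm, had 203 ± 35.7 CPM in Gli3R and 126 ± 25.2 CPM in control libraries. It rose with litter as a block (edgeR adjusted p = 0.0424) and in DESeq2. T, the Brachyury gene, fell with the block (edgeR adjusted p = 0.0373) and did not pass without it (edgeR adjusted p = 0.402). It had 5.58 ± 2.31 CPM in Gli3R and 22.6 ± 18.6 CPM in control libraries. The groups overlapped, with 8.08, 5.13 and 3.53 CPM in Gli3R replicates 1, 2 and 3 and 43.6, 16.4 and 7.99 CPM in control replicates 1, 2 and 3. Control replicate 1 was the highest by far. Ptch1, the receptor gene that reads out Hedgehog signalling, stood at a log2 fold change of -1.89 ± 0.38 and the forkhead gene Foxc2 at -0.76 ± 0.29. Neither was called by DESeq2 or passed in edgeR. The edgeR adjusted p of Ptch1 was 0.169 without and 0.121 with the block, and that of Foxc2 0.647 and 0.209.

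Markers of other cell types differed between the groups in part. The 12 epiblast and neural ectoderm markers, of which 7 passed the filter, summed to 141 to 156 CPM in Gli3R and 149 to 270 CPM in control libraries. Of the 12, 5 were lower in every Gli3R library than in any control library, beside 6.33% of all tested genes, and Sox1 was at 0 throughout. Their part in the values of the blood and endothelial factors was not tested. Macrophage markers were near 0 (at most 2.05 CPM in sum in Gli3R and 1.67 CPM in control libraries, with Ptprc and Aif1 at 0). Of 10 trophoblast markers, Elf5 and Tpbpa were at 0, and the summed level (600 to 966 CPM in Gli3R and 449 to 908 CPM in control libraries) was mostly Krt18. Of the 10, 4 passed the filter. Among the 10, 1, Gata3, was higher in every Gli3R library than in any control library, beside 5.62% of all tested genes.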

How the data were processed

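RNA of 6 pools of sorted mesoderm was sequenced, 3 Gli3R and 3 control. The authors deposited raw counts per gene and library. Per the submitters' processing notes, the build was mm9 and the tools were TopHat2 2.0.14, featureCounts, Subread 1.4.6, edgeR and FastQC. Of the strand setting, the annotation and the treatment of multimapping reads nothing is stated, and promoter positions come from GRCm38 and were not joined to the counts by position.

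The 10 members, the 6 lists, the 7 marker lists and the motifs were chosen with earlier results of these data known. Every member is named, with up to 4 genes of smallest p per list. The whole table was fitted in R 4.3.3 with edgeR 4.0.16 (filterByExpr with minimum count 10, TMM, quasi-likelihood test, two-sided, Benjamini-Hochberg adjustment, threshold 0.05). The filter left 11913 of 24975 genes. SEs were taken from the fold change and the F statistic. CPM refers to the counts left by the filter. Lyl1 and Erg were fitted without the filter (18719 genes). Ratios within litters used a prior of 0.5 counts. The script was tested on simulated data.

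Litter numbers in the labels pair the libraries, and the correlation of deviations from the group mean was 0.166, 0.186 and 0.0772 in litters 1, 2 and 3, and at most 0.145 between libraries of different litters. Libraries differed beyond sampling noise (chi-square per gene at least 4.09), so none was merged. The litters were separate pools. Without the block, p-values rest on the spread between the libraries of a group. With litter as a block, they rest on the spread left once differences between litters are taken out. DESeq2 1.42.0 gave no adjusted p for 3 genes. A further 27 symbols turned into dates were restored by gene ID. Alternatives were the litter block, 2 other scalings, 2 other filters, DESeq2, and leaving out each library or litter.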

Additional observations from a re-analysis of the deposited data

How the results depend on the processing

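Directions of the 8 tested members held under every alternative run, and calls did not. Members called higher were 0 with litter as a replicate block (paired by litter), 0 at a minimum of 5 CPM in 3 libraries (which drops Tal2), 2 with library size alone (Tal2 and Tal1) and 4 each without the filter and with DESeq2, with 1 lower in both of these. Leaving out any library or litter gave 0 members called higher and 0 lower, with 4 to 6 higher and 1 lower at an unadjusted p under 0.05. In those fits 203 to 607 of all genes were higher and 161 to 489 lower at that p, of 11917 to 12326 tested. Over the whole table, 9 genes were higher with the block, 5 with library size alone, 1 at 5 CPM, 49 higher and 59 lower without the filter, and 43 higher and 51 lower with DESeq2. Without a library or litter, 0 to 5 were higher and 0 to 22 lower, and 18 were lower with the block. The log2 fold change of Lyl1, 0.15, ran from -0.20 to 0.56 without a library or litter and so changed sign. The cause of these shifts was not tested. The median of all genes moved by less than 0.1 between scalings. Depth limits Lyl1 and Erg, whose reads number 33 and 7 in all, and the control level of Tal2.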

Other observations

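The other members of the factors' gene families were read as well, a choice made after the values above were known. Among the GATA genes, the erythroid factor Gata1 averaged 29.4 ± 8.23 CPM in Gli3R and 31.6 ± 12.7 CPM in control libraries, and the mesoderm and endoderm factors Gata6 (21.9 ± 3.02 CPM in Gli3R and 22.8 ± 3.60 CPM in control libraries) and Gata4 (8.37 ± 1.29 CPM in Gli3R and 9.42 ± 1.35 CPM in control libraries) were near level too. Gata5 had 12.96 ± 1.095 CPM in Gli3R and 11.7 ± 5.99 CPM in control libraries. Gata3 lay above control in every Gli3R library (1.94 to 3.99 CPM, against 1.35 to 1.90 CPM in control libraries), with a log2 fold change of 0.92 ± 0.37 (SE) that did not pass (edgeR adjusted p = 0.694). Of the relatives of Lmo2, Lmo4 had 15.4 ± 3.26 CPM in Gli3R and 17.1 ± 2.84 CPM in control libraries, and Lmo3 had 13 reads in Gli3R and 10 in control libraries. Runx2 had 6 reads in Gli3R and 9 in control libraries and Runx3 had 2 in Gli3R and 5 in control libraries, so that Runx1 supplied nearly all Runx reads in both groups.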
